A study of Mus musculus with 12 samples.

Results

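The endoplasmic reticulum (ER) chaperone and unfolded protein response genes are 39 genes listed by name, under a rule that uses no measured value, out of 55536 gene identifiers in the count tables. They comprise 18 genes of folding (chaperones, their partners and disulfide enzymes), 8 genes of ER-associated degradation (ERAD), 4 genes of sensing (Xbp1, Ern1, Atf6 and Eif2ak3), 6 genes of the ATF4 branch (Atf4, Ddit3, Trib3, Asns, Chac1 and Ppp1r15a), and 3 genes of entry into and exit from the ER (Sec61b, Ssr1 and Mia2). All 39 passed the filter on low counts. They were measured by RNA-seq in 12 libraries of epididymis from wild-type mice (genotype WT), 2 for each of 6 groups. Control tissue of segments 1, 2 and 3 is written C1, C2 and C3. The same segments after efferent duct ligation, a suture tied round the ducts that bring sperm and fluid from the testis, just before they enter the caput, are written L1, L2 and L3. Each library is a pool of 2 mice, and no other agent or allele is named. Sources used here do not give the age of the mice, the time after ligation, or whether ligated and control tissue came from the same mice. Each sequencing batch, 3017 and 3097, holds 1 library of every group, and pairs of values are given in that order throughout. Replicates are separate pools, so p-values measure a spread between pools. That spread was estimated per gene over all 12 libraries with batch in the model, and not for the compared groups alone.

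Secreted and membrane proteins fold in the ER with the help of the chaperone BiP, lectin chaperones and disulfide isomerases, and chains that fail to fold are passed back to the cytosol for degradation. When unfolded chains accumulate, the sensors IRE1 (Ern1), ATF6 and PERK (Eif2ak3) act through the transcription factors XBP1, cleaved ATF6 and ATF4, which raise chaperone and degradation genes on the first 2 arms and amino acid, stress and feedback genes on the third. The epididymal duct is lined by principal cells that secrete large amounts of protein into the lumen, in amounts that differ along its segments. IRE1 splices Xbp1 mRNA and PERK sets the translation of Atf4 mRNA, and counts per gene show neither step.

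Promoter letters are shown for the response elements known for this pathway. RefSeq promoters of build GRCm38.p6, from 250 bases before to 50 after each gene's start, matched 33 of the 39 genes; Manf, Hyou1, Ero1l, Ero1lb, Derl1 and Atf6 were not matched. The ER stress response element (ERSE), written here as CCAAT, any 9 bases and CCACG, was searched on both strands. It stood in 9 of 33 promoters, 27.3%, against 35 of all 27025 promoters, 0.13%. The elements were searched because they are known for this pathway, so their shares among its genes are a description and were not tested. The matches, each with 10 bases on either side and with CCAAT and CCACG in capitals, read on the strand of the element, are as follows.
Hspa5: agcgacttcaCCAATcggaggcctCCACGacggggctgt
Hsp90b1, upstream match: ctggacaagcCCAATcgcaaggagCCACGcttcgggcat
Hsp90b1, match nearer the start: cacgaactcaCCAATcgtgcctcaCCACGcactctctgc
Calr: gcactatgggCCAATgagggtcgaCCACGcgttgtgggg
Canx: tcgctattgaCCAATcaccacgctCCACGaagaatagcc
Pdia6: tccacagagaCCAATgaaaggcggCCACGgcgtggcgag
Dnajc3: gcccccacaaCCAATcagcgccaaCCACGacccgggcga
Creld2: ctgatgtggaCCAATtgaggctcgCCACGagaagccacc
Derl3: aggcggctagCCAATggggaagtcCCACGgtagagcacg
Syvn1: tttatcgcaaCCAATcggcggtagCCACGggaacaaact

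Of these 9 genes, 7 belong to folding and 2 to ERAD, and none of the ATF4 branch promoters held the element. The core of the C/EBP-ATF response element, TGATGNAA, stood in 4 of 33 promoters, 12.1%, against 1096 of all promoters, 4.06%. They were Herpud1 and the ATF4 branch genes Trib3, Asns and Chac1, printed with the core in capitals on its own strand.
Herpud1: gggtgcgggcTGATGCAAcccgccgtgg
Trib3: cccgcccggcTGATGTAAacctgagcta
Asns: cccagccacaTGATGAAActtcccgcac
Chac1: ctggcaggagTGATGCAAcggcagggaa
The shorter element ERSE-II, ATTGG, 1 base and CCACG, stood in Dnajb11 and Herpud1 and in 10 of all promoters, 0.037%. The UPRE core TGACGTGG stood in none of the 33 and in 164 of all promoters, 0.607%. No searched motif overlapped another in these promoters. A match describes letters in this window and not a bound site.

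The 250 bases before the start are printed for Hspa5 and Syvn1, which hold the ERSE, and for Asns and Chac1, which hold the C/EBP-ATF core. In segment 1, Syvn1 fell, Hspa5 was not called, and Asns and Chac1 rose. Of the other genes with the core, Herpud1 fell there and Trib3 was not called, whereas Ddit3 rose with no core in this window. The printed bases run 5′ to 3′ on the strand of the gene, with the matched element in capitals.
Hspa5, chr2:34771840-34772089, plus strand: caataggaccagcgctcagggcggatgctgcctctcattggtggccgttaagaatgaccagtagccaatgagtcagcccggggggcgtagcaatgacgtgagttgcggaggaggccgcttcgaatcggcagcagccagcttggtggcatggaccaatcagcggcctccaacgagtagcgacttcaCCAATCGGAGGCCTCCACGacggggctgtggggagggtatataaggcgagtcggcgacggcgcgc
Syvn1, chr19:6046326-6046575, plus strand: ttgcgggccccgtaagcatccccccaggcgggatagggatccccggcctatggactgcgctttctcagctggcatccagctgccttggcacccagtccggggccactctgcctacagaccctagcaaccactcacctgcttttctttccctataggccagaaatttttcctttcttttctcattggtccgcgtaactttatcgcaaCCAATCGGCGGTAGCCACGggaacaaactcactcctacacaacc
Asns, chr6:7693210-7693459, minus strand: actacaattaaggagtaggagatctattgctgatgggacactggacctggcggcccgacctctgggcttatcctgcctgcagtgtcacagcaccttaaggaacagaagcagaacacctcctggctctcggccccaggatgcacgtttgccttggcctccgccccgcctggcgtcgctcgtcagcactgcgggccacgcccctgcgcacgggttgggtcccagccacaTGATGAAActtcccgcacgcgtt
Chac1, chr2:119350992-119351241, plus strand: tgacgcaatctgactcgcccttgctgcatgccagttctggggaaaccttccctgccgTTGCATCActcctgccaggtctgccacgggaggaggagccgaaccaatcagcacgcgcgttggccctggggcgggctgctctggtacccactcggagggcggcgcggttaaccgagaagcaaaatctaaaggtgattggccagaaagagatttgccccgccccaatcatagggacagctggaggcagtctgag
The ERSE of Hspa5 lies at bases -65 to -47 from the start and that of Syvn1 at bases -44 to -26. The core of Asns lies at bases -23 to -16 and that of Chac1 at bases -193 to -186.

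Libraries held 30485275 to 42313728 counts, and the 39 genes took 1.59% to 2.25% of them. Levels are given as CPM, counts brought to a common library total after TMM scaling, a scaling by trimmed means of log ratios. The labelled tissue carried its markers, with Gpx5 at 26632 to 62631 CPM and Adam7 at 8701 to 26480 CPM over the 12 libraries, whereas Lcn8, a gene of the most proximal segments, was at 13694 and 14229 CPM in C1 and at most 15.5 CPM in any ligated library. The C2 libraries stood apart from each other, with Lcn8 at 3320 and 210 CPM and a ratio of chi-square to degrees of freedom, over genes, of 115.5 between the pair, against 22.6 to 80.1 in the other groups. Counts of the 39 genes called that rest on C2 are therefore also given without each of its libraries, in some cases as a range. Values of single genes in C2, and the related lists of segment 2, mostly lack that check. In bulk tissue, fewer cells of a type and less RNA per cell cannot be told apart.

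Per kilobase of exon, the folding genes were the most abundant. Calr, a calcium-binding lectin chaperone, led with 1003 to 1316 CPM per kilobase over the 6 group means, and the median over the 18 folding genes was 165 to 195. The medians per kilobase were 20.4 to 39.4 in ERAD, 15.5 to 20.8 for the sensors and 3.55 to 9.07 in the ATF4 branch. Within that branch Atf4 stood at 57.5 to 79.7 CPM per kilobase, and Trib3 was the lowest of all 39 genes, at 0.301 to 0.477.

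**Figure D1:**
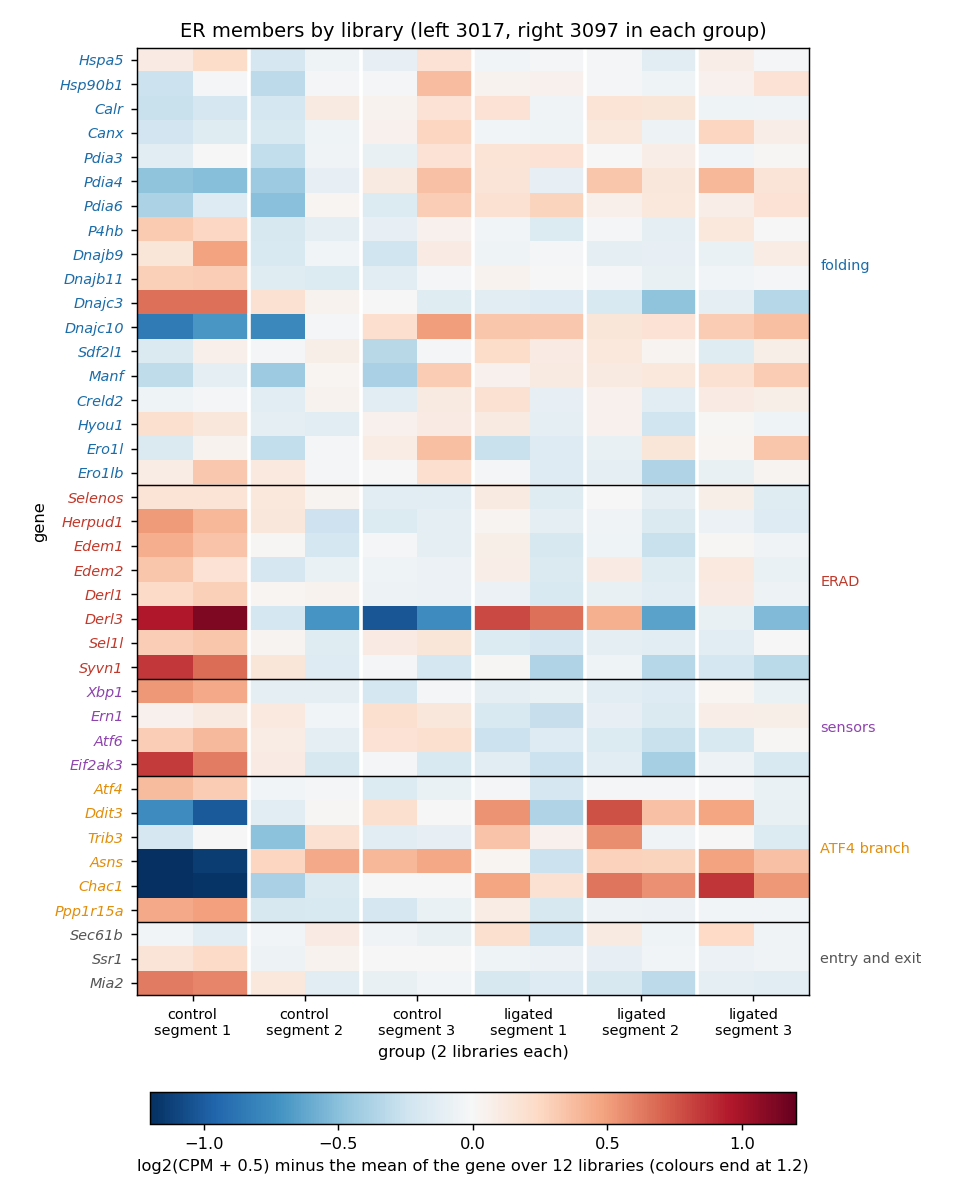
Heat map of the 39 genes (rows, grouped by role) in the 12 libraries (columns, batch 3017 left and 3097 right in each group), coloured by log2(CPM + 0.5) minus the gene's mean over the libraries, red for higher and blue for lower, with colours ending at 1.2. The C1 columns are red in all 8 ERAD rows and dark blue for Ddit3, Asns and Chac1.

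After ligation, 6 of 8 ERAD genes and all 4 sensing genes fell in segment 1 (4 and 3 of them with library totals), and transcripts of Asns, Chac1, Ddit3 and the disulfide reductase Dnajc10 rose. The most abundant chaperones, Hspa5, Hsp90b1 and Calr, were not called with TMM scaling. With library totals Hsp90b1 and Calr were called higher, and Calr was also called in DESeq2. Of the 39 genes, 24 were called by edgeR's quasi-likelihood test at a Benjamini-Hochberg adjusted p under 0.05, 61.5% of them, where 48.7% of all 19213 genes tested were called. The calls were 6 higher and 18 lower in L1, where 24.4% of all genes were called higher and 24.4% lower. The same shares of all genes stand beside the counts per role and per cell type in segment 1 given below. The median log2 fold change was -0.25 over the 39 genes and 0.03 over all genes. With library totals in place of TMM factors, the median of all genes moved to 0.24 and that of the 39 genes to -0.05, and the calls became 12 higher and 11 lower beside 6505 higher and 3130 lower of all genes. The contrast of L1 with C1 shares the C1 libraries with the comparisons of control segments given further on.

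With TMM scaling, the most abundant chaperones were close between ligated and control segment 1. Hspa5 encodes BiP, the central ATP-driven chaperone of the ER, and its levels were 2816 and 3073 CPM in C1, 2287 and 2539 in C2, 2464 and 2964 in C3, 2578 and 2589 in L1, 2596 and 2406 in L2, and 2774 and 2606 in L3. Both L1 values lay below both C1 values, and the log2 fold change of -0.19 ± 0.13 (standard error) did not pass (adjusted p = 0.24); with library totals alone its sign turned, at 0.015. Hsp90b1, whose product GRP94 folds a narrower set of clients, had 1851 and 2167 CPM in C1, 1773 and 2192 in C2, 2189 and 2858 in C3, 2267 and 2282 in L1, 2183 and 2133 in L2, and 2294 and 2496 in L3. Its L1 values were above both C1 values by a little, with a log2 fold change of 0.19 ± 0.13 (adjusted p = 0.26). Some of its exons overlap a gene on the opposite strand, and the strand setting of the counting is not given.

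Calr had 2820.3 and 2959 CPM in C1, 2943 and 3673 in C2, 3509 and 3839 in C3, 3847 and 3307 in L1, 3817 and 3762 in L2, and 3273 and 3302 in L3. Both L1 values lay above both C1 values, with a log2 fold change of 0.31 ± 0.14 that missed the threshold (adjusted p = 0.088), and it passed in DESeq2 and with library totals. Canx, its membrane-bound relative, and Pdia3, the disulfide isomerase that works with both, gave 0.15 ± 0.12 and 0.24 ± 0.11 on the log2 scale (adjusted p = 0.35 and 0.095). The small ER proteins Sdf2l1, Manf and Creld2, common markers of ER stress, were not called either. Sdf2l1 had 177 and 209 CPM in C1, 199 and 210.5 in C2, 158 and 197 in C3, 234 and 214 in L1, 219 and 204 in L2, and 181 and 211 in L3. Its L1 values exceeded its C1 values narrowly, with a log2 fold change of 0.22 ± 0.12 (adjusted p = 0.15).

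Manf, a BiP-binding protein that cells release under ER stress, had 457 and 523 CPM in C1, 417 and 569.9 in C2, 431 and 696 in C3, 585 and 607 in L1, 608 and 614 in L2, and 639 and 696 in L3. Both L1 values exceeded both C1 values, and the log2 fold change was 0.29 ± 0.16 (adjusted p = 0.16). Creld2, an ER-resident protein with disulfide isomerase features, had 194 and 198 CPM in C1, 185 and 208 in C2, 183 and 218 in C3, 229 and 189 in L1, 209.8 and 185 in L2, and 216 and 212 in L3. Its groups overlapped, with a log2 fold change of 0.09 ± 0.12 (adjusted p = 0.57). With library totals, Hsp90b1, Calr, Canx, Pdia3, Sdf2l1 and Manf were all called higher in L1, so their calls depend on the scaling. Manf was also called with only the libraries of C1 and L1 fitted.

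Of the 18 folding genes, 3 were called higher and 4 lower, 38.9% of them, below the 48.7% of all genes called. That split turned to 9 higher and 1 lower with library totals. Dnajc10, whose product ERdj5 combines a J domain with a disulfide reductase, had 879 and 978 CPM in C1, 929 and 1564 in C2, 1829 and 2245 in C3, 2002 and 1988 in L1, 1761 and 1788 in L2, and 1959 and 2039 in L3. Both L1 values were far above the C1 values, and the rise was 2.16-fold, a log2 fold change of 1.11 ± 0.18 (adjusted p = 7.6e-04). The L1, L2, L3 and C3 libraries lay in a common range of 1761 to 2245 CPM, and C1 with the C2 library of batch 3017 lay at 879 to 978. Pdia4 rose by 0.53 ± 0.16 (adjusted p = 0.018) and Pdia6 by 0.49 ± 0.14 (adjusted p = 0.016), both of them disulfide isomerases, and each lost its call when either C1 library or the L1 library of batch 3017 was left out. For each of these genes both L1 values exceeded both C1 values, and Pdia6 was not called without batch in the model.

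Dnajc3 moved the other way. Its product, p58IPK, is a BiP cochaperone that also binds PERK, and its levels were 638 and 640.5 CPM in C1, 460.3 and 415 in C2, 405 and 364 in C3, 369 and 363 in L1, 357 and 289.7 in L2, and 372 and 319 in L3. The C1 libraries stood above all 10 others, and the fall in L1 was 1.75-fold, -0.81 ± 0.10 on the log2 scale (adjusted p = 1.8e-04). Dnajb9, a J-domain protein that is a marker target of XBP1, had 138 and 175 CPM in C1, 110.1 and 122 in C2, 106 and 133 in C3, 121 and 123 in L1, 116 and 116 in L2, and 118 and 133 in L3. Its fall of -0.35 ± 0.10 (adjusted p = 0.014) was not called with library totals, without batch, or without the C1 library or the L1 library of batch 3097. P4hb, the founding disulfide isomerase, and Dnajb11, a J-domain partner of BiP, fell, with a log2 fold change of -0.38 ± 0.11 and -0.27 ± 0.07 (adjusted p = 0.015 and 0.014), and neither was called with library totals. Dnajb11 also lost its call without any of the libraries of C1 and L1, and P4hb without either C1 library or the L1 library of batch 3097. The nucleotide exchange factor Hyou1 had a log2 fold change of -0.16 ± 0.11 and was not called. The oxidases Ero1l and Ero1lb, which recharge the isomerases, gave -0.15 ± 0.08 and -0.30 ± 0.12 and were not called either. Ero1lb was called with only the libraries of C1 and L1 fitted.

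Most ERAD genes fell, with 6 of 8 called lower in L1, none higher and a median log2 fold change of -0.42; with library totals 4 were lower and none higher. Syvn1 encodes HRD1, the ubiquitin ligase that marks misfolded chains, and its levels were 185 and 163 CPM in C1, 113 and 91.8 in C2, 101 and 88.3 in C3, 104 and 79.7 in L1, 98.6 and 81.00 in L2, and 88.5 and 81.8 in L3. No other library reached the C1 values. The fall was 1.91-fold, -0.93 ± 0.08 on the log2 scale (adjusted p = 3.2e-05). Sel1l, the partner that holds HRD1 in its complex, fell from 165 ± 3.37 to 117 ± 1.84 CPM (SD, n = 2), -0.50 ± 0.08 on the log2 scale (adjusted p = 9.9e-04).

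Herpud1, a membrane protein that assembles this complex, had 193 and 178 CPM in C1, 148 and 114 in C2, 121 and 125 in C3, 139 and 126 in L1, 131 and 120.1 in L2, and 129 and 122 in L3. Its C1 values lay above those of all other libraries, and the fall in L1 was -0.49 ± 0.10 (adjusted p = 0.0026). The mannosidase-like genes Edem1 and Edem2, which mark glycoproteins for removal, fell, with a log2 fold change of -0.45 ± 0.08 and -0.30 ± 0.10 (adjusted p = 0.001 and 0.029). Derl1, part of the exit channel, fell, with a log2 fold change of -0.39 ± 0.08 (adjusted p = 0.0024), and Derl1 and Edem2 were not called with library totals. Edem2 also lost its call without batch in the model and without any of the libraries of C1 and L1. Selenos, which draws the p97 ATPase to the membrane, gave -0.18 ± 0.08 (adjusted p = 0.089). Derl3, a channel relative known for secretory cells, was chosen for printing after its values were seen, and had 112 and 125 CPM in C1, 49.4 and 34.99 in C2, 27.9 and 33.9 in C3, 99.8 and 90.9 in L1, 77.4 and 36.7 in L2, and 53.9 and 39.6 in L3. Its L1 libraries lay below C1 and above every library of segments 2 and 3, with a log2 fold change of -0.33 ± 0.31 (adjusted p = 0.42). Derl3 was called there with only the libraries of C1 and L1 fitted.

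All 4 sensing genes fell in segment 1, with a median log2 fold change of -0.56; with library totals 3 of them fell and Ern1 was not called. Eif2ak3 encodes PERK, the kinase that slows translation under ER stress, and had 114 and 97.3 CPM in C1, 67.5 and 55.3 in C2, 62.3 and 55.6 in C3, 57.6 and 52.7 in L1, 57.4 and 47.8 in L2, and 60.7 and 55.7 in L3. The C1 values stood well clear of the other 10 libraries, which lay between 47.8 and 67.5 CPM. The fall in L1 was 1.91-fold, -0.93 ± 0.07 on the log2 scale (adjusted p = 2.2e-05). Its exons overlap an opposite-strand gene, Gm43292.

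Xbp1, the transcription factor activated by IRE1, had 249 and 238 CPM in C1, 161 and 160.3 in C2, 150.5 and 171 in C3, 162 and 165 in L1, 159.6 and 157 in L2, and 177 and 165 in L3. Outside C1, it lay between 150.5 and 177 CPM in every library, and the fall in L1 was 1.49-fold, -0.58 ± 0.08 on the log2 scale (adjusted p = 4.7e-04). Atf6, a membrane-held transcription factor, fell from 156 ± 7.40 to 107 ± 5.19 CPM (SD, n = 2), a log2 fold change of -0.55 ± 0.10 (adjusted p = 0.0016). Ern1, which encodes IRE1 itself, fell from 197 ± 5.70 to 159 ± 7.17 CPM (SD, n = 2), a log2 fold change of -0.31 ± 0.08 (adjusted p = 0.0086).

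**Figure D2:**
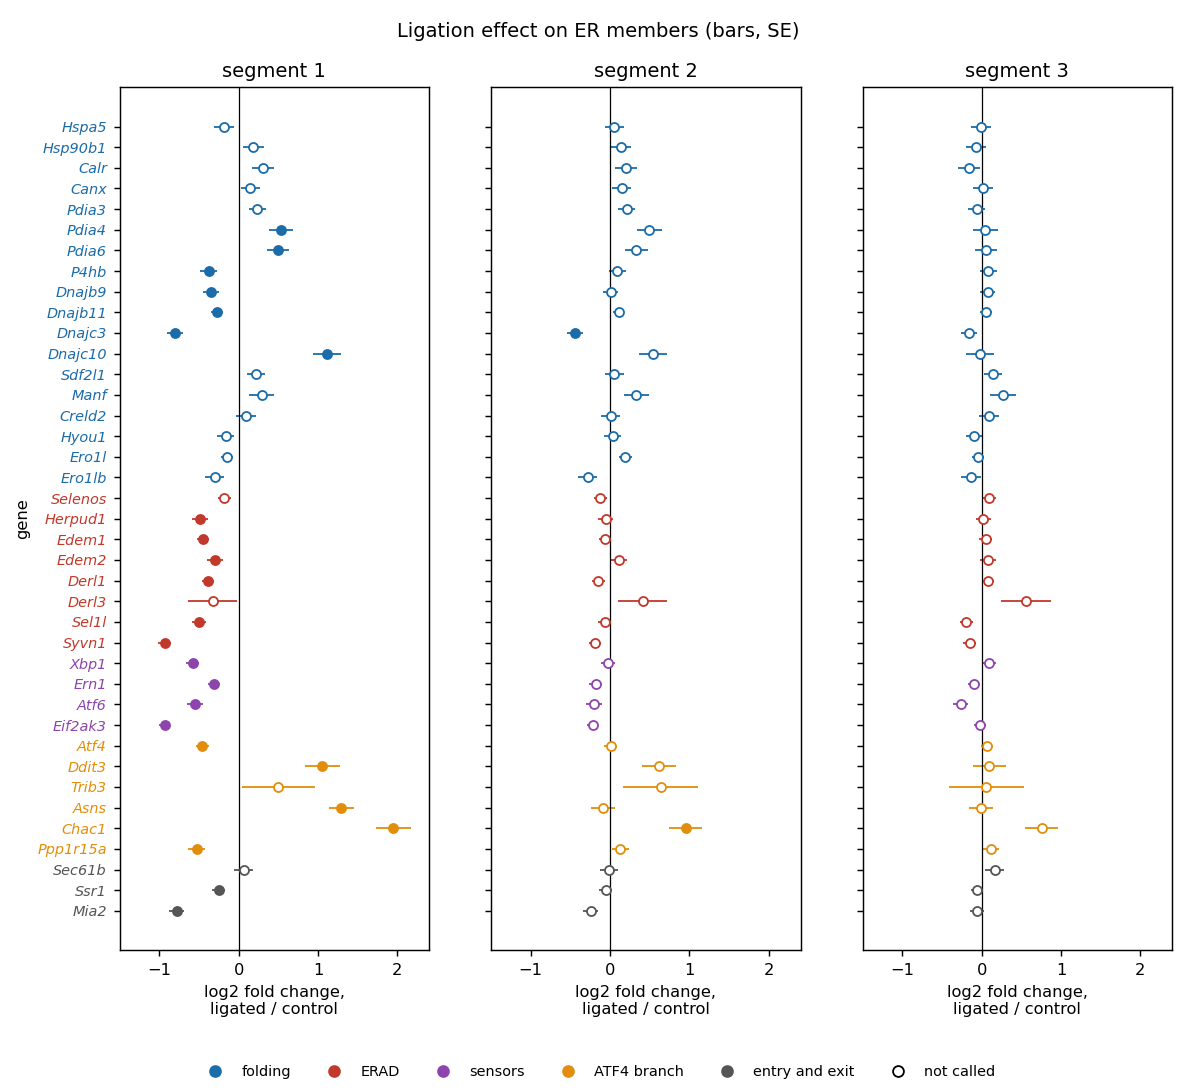
Log2 fold change of ligated over control (horizontal axis) with its standard error (bars) for the 39 genes in segments 1, 2 and 3; filled points passed the adjusted p of 0.05 in edgeR's quasi-likelihood test. Segment 1 holds 24 filled points, segment 2 holds Dnajc3 and Chac1, and segment 3 holds none.

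In the ATF4 branch, 3 of 6 genes (Asns, Chac1 and Ddit3) were called higher and 2 (Atf4 and Ppp1r15a) lower in L1, counts that stayed at 3 and 2 with library totals. Atf4, the transcription factor of the branch, had 193 and 183 CPM in C1, 145 and 145 in C2, 132 and 139.7 in C3, 145 and 128 in L1, 145 and 146 in L2, and 145 and 139.7 in L3. Its C1 values lay above all others, and it fell, with a log2 fold change of -0.46 ± 0.08 (adjusted p = 0.0013). Ppp1r15a, which encodes GADD34 and returns the translation block to rest, fell from 32.3 ± 0.677 to 22.4 ± 3.17 CPM (SD, n = 2), a log2 fold change of -0.53 ± 0.10 (adjusted p = 0.0025).

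Asns, asparagine synthetase, moved in the opposite direction and had 7.79 and 10.8 CPM in C1, 29.2 and 33.5 in C2, 32.2 and 33.8 in C3, 24.8 and 20.3 in L1, 29.5 and 29.4 in L2, and 34.2 and 31.3 in L3. The C1 libraries lay below all 10 others, and the rise in L1 was 2.45-fold, 1.29 ± 0.16 on the log2 scale (adjusted p = 1.8e-04). Chac1, an enzyme that degrades glutathione, had 1.33 and 1.76 CPM in C1, 3.41 and 4.02 in C2, 4.57 and 4.61 in C3, 6.60 and 5.29 in L1, 7.44 and 6.96 in L2, and 8.75 and 6.80 in L3. Every ligated library exceeded every control library, and the rise in segment 1 was 3.86-fold, 1.95 ± 0.22 on the log2 scale (adjusted p = 1.3e-04). Ddit3, which encodes the stress factor CHOP, had 6.94 and 5.75 CPM in C1, 10.98 and 12.1 in C2, 13.9 and 12.03 in C3, 17.8 and 9.29 in L1, 20.8 and 15.5 in L2, and 16.9 and 11.3 in L3. Both L1 values exceeded both C1 values, with the L1 library of batch 3097 the closer to them, and the rise was 2.08-fold, 1.06 ± 0.22 (adjusted p = 0.0033). Ddit3 exons overlap those of Mars on the opposite strand, and the effect of this overlap on the Ddit3 counts was not tested.

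Trib3, a pseudokinase induced by ATF4 and CHOP, was the lowest of the 39 genes, with 0.576 and 0.745 CPM in C1, 0.379 and 0.901 in C2, 0.625 and 0.658 in C3, 1.07 and 0.784 in L1, 1.32 and 0.706 in L2, and 0.733 and 0.607 in L3. Both L1 values were above both C1 values by less than 1 CPM, and the log2 fold change of 0.50 ± 0.46 did not pass (adjusted p = 0.4).

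At the entry to and exit from the ER, 2 of 3 genes fell in L1. Mia2, which helps load large cargo at ER exit sites, had 270.0 and 262 CPM in C1, 190.2 and 158 in C2, 164 and 171 in C3, 153 and 157 in L1, 153 and 141 in L2, and 162 and 159.9 in L3. Its C1 values were the highest of the 12 libraries, and the fall was 1.72-fold, -0.78 ± 0.09 on the log2 scale (adjusted p = 1.4e-04). Ssr1, a subunit beside the translocon, fell, with a log2 fold change of -0.25 ± 0.08 (adjusted p = 0.026), a call lost with library totals and without any of the 4 libraries of the contrast. Sec61b, a subunit of the translocon channel, gave 0.06 ± 0.12 (adjusted p = 0.68).

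**Figure D3:**
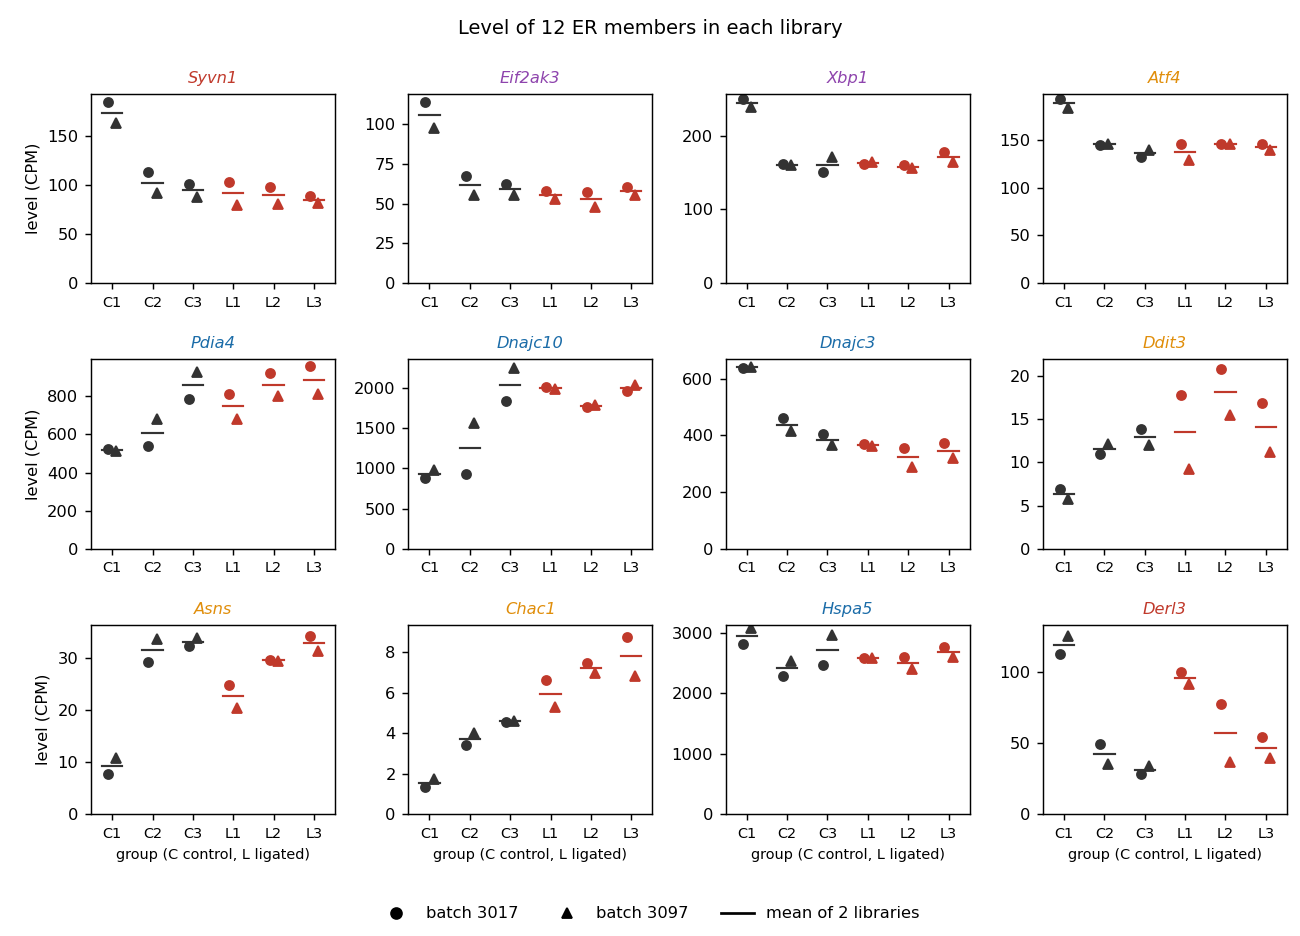
Level (CPM, linear axis from 0) of 12 of the genes in each library by group, circles for batch 3017, triangles for batch 3097 and lines for the mean of 2 libraries, black for control (C) and red for ligated (L). Syvn1, Eif2ak3, Xbp1, Atf4 and Dnajc3 are highest in C1, Asns and Chac1 are lowest there, and Hspa5 stays between 2287 and 3073.

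Of the 24 calls in segment 1, 15 held under all 9 alternatives tried, namely Asns, Chac1, Ddit3 and Dnajc10 as higher and Atf4, Atf6, Dnajc3, Edem1, Eif2ak3, Herpud1, Mia2, Ppp1r15a, Sel1l, Syvn1 and Xbp1 as lower. Leaving out either library of C1 or L1 in turn kept 16 of the 24. The other 9 calls were those of Pdia4, Pdia6, P4hb, Dnajb9, Dnajb11, Derl1, Edem2, Ern1 and Ssr1, at 0.53 or less in size on the log2 scale.

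**Figure D4:**
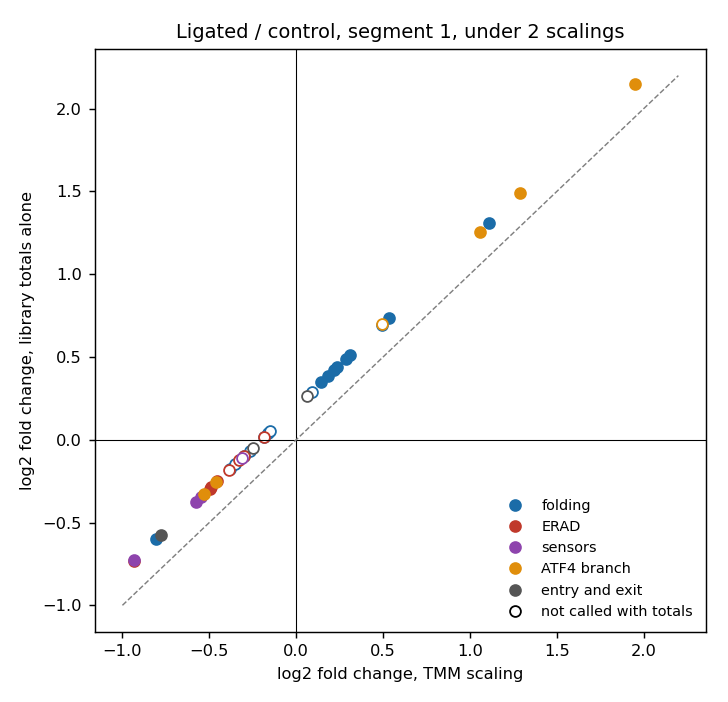
Log2 fold change of L1 over C1 for the 39 genes with TMM scaling (horizontal) against library totals alone (vertical), coloured by role; open points were not called with totals, and the dashed line marks equal values. All points lie above the line, by about the shift of the median of all genes from 0.03 to 0.24.

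Other cell types moved with the same contrast. The 4 endothelial markers summed to 73.9 and 70.3 CPM in C1, to 18.6 and 27.5 in L1 and to 8.87 to 13.3 in all other libraries, and all 4 were called lower in L1. The 7 macrophage and dendritic markers summed to 132 and 144 CPM in C1 and to 202 and 220 in L1, with 2 called higher. All 6 sperm markers fell in L1, from sums of 8.48 and 10.2 CPM to 0.583 and 0.196, while C2 and C3 held 87.2 to 175 CPM. Of 5 fibroblast markers 4 rose and Pdgfra fell. Their sum was 621 and 629 CPM in C1 and 215 and 329 in L1, a fall that came from Pdgfra alone. All 4 smooth muscle markers rose. Of 4 markers of efferent duct ciliated cells 3 rose, from sums of 15.6 and 15.1 CPM in C1 to 23.6 and 28.6 in L1. Of 5 principal cell markers 3 fell (Adam7, Lcn8 and Defb25) and none was called higher. Plasma and B cells, a rich source of ER chaperone transcripts, were near absent, with 9 markers summing to 3.38 to 5.48 CPM in every library, most of it Ighm, and Iglc1 at 0 counts throughout. The part of these cell types in the results was not tested.

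Related genes of each role, listed by pathway, were counted under TMM scaling only. In segment 1, 24.4% of all genes were called higher and 24.4% lower, and these shares stand beside each count in these lists. Of 18 other ERAD genes, 13 fell and none rose in segment 1, with a median of -0.44. The largest called falls were of Edem3 (-0.89 ± 0.11), Ube2j1 (-0.81 ± 0.09) and Aup1 (-0.70 ± 0.08), which act in glycan trimming and in ubiquitin transfer. Of 28 other ER folding genes, 6 rose and 9 fell, 21.4% and 32.1% of them, near the shares of all genes. Their largest called changes were in Fkbp7 (-0.95 ± 0.30), Hspa13 (-0.90 ± 0.10) and the glucosidase Mogs (-0.90 ± 0.10), all lower. Of 30 genes of the translocon, of glycosylation and of transport to the Golgi, 5 rose and 14 fell, with Stt3b (-1.15 ± 0.16), Dad1 (-0.81 ± 0.08) and Sec24d (-0.78 ± 0.07) lowest.

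Of 9 other ER stress sensors and factors that were tested, 1 rose and 5 fell. Creb3l1, a membrane-held factor of secretory cells, rose by 1.59 ± 0.25 at a low level, with means of 1.22 CPM in C1 and 3.66 in L1. Wfs1, an ER membrane protein, fell (-0.82 ± 0.10). Creb3l3, a low gene that was called lower, had 28 and 23 raw counts in C1 and 3 and 1 in L1. Of 28 other ATF4 targets and kinases of eIF2 alpha, 10 rose and 9 fell. The 3 called genes with the largest changes were Vldlr (-4.84 ± 0.27), Cebpb (-3.69 ± 0.42) and Fgf21 (3.45 ± 0.54), the last below 3 CPM. Of 12 cytosolic aminoacyl-tRNA synthetases, which ATF4 is known to raise, Gars rose (0.47 ± 0.08) while Mars (-0.55 ± 0.10) and Aars (-0.35 ± 0.08) fell. Among 14 cytosolic heat shock genes, the parallel system outside the ER, 6 rose and 5 fell, with Bag3 at -2.11 ± 0.14, Hspb1 at 2.00 ± 0.24 and Hspa1b at 1.47 ± 0.14. Values in parentheses and after names in these lists are log2 fold changes with standard errors, and all passed at an adjusted p under 0.05.

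Between control segments, C1 stood apart. In 20 of the 39 genes both C1 libraries lay above all 10 other libraries, where 22.2% of all genes did so, and in 4 (Pdia4, Ddit3, Asns and Chac1) both lay below, where 21.9% of all genes did. All 8 ERAD genes, 3 of 4 sensing genes, 5 of 18 folding genes, 2 of 6 ATF4 branch genes (Atf4 and Ppp1r15a) and 2 of 3 entry and exit genes were among the 20. Against C1, C2 had 20 genes called, 3 higher and 17 lower, beside 43.2% of all genes called, 22.1% higher and 21.1% lower. C3 had 23 called, 7 higher and 16 lower, beside 51.2% of all genes, 26.2% higher and 25% lower. With library totals the split of C3 was 10 higher and 14 lower, and that of all genes is not given here.

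The comparisons of C2, C3 and L1 with C1 share the C1 libraries, so their values are set side by side without further reading. Asns rose by 1.76 ± 0.16 in C2, 1.84 ± 0.16 in C3 and 1.29 ± 0.16 in L1 on the log2 scale. Eif2ak3 fell, with a log2 fold change of -0.78 ± 0.07, -0.84 ± 0.07 and -0.93 ± 0.07, and Syvn1 fell too, at -0.77 ± 0.08, -0.88 ± 0.08 and -0.93 ± 0.08. Xbp1 fell, with a log2 fold change of -0.60 ± 0.08, -0.60 ± 0.08 and -0.58 ± 0.08. Derl3 fell, with a log2 fold change of -1.52 ± 0.32 in C2 (adjusted p = 0.0091) and -1.93 ± 0.32 in C3 (adjusted p = 0.0027). In L1 it was called only when the libraries of C1 and L1 were fitted alone. Its call in C2 was lost without either C2 library and without the C1 library of batch 3097. Ern1 gave -0.03 ± 0.08 in C2 and 0.08 ± 0.08 in C3, neither called, and fell in L1.

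Among the folding genes, Dnajc10 rose by 1.13 ± 0.18 in C3 (adjusted p = 6.5e-04) and gave 0.40 ± 0.17 in C2 (adjusted p = 0.089), where its libraries were 929 and 1564 CPM. Without the C2 library of batch 3017 the count in C2 against C1 was 19, with Dnajc10 and Pdia4 gained, and without the library of batch 3097 it was 17. It fell to 12 when only the libraries of C1 and C2 were fitted and to 13 without the C1 library of batch 3097. Between C3 and C2, 1 gene was called, Ero1l, an oxidase of the isomerases, higher by 0.39 ± 0.08 in C3 (adjusted p = 0.043), beside 1.79% of all genes. That call was absent without either library of C3, without the C2 library of batch 3017, without batch and with only the 4 libraries fitted.

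In segment 2, ligation moved few of the genes. Chac1 rose by 0.95 ± 0.21 (adjusted p = 0.024), from 3.41 and 4.02 CPM in C2 to 7.44 and 6.96 in L2. Dnajc3 fell, with a log2 fold change of -0.44 ± 0.10 (adjusted p = 0.025), from 460.3 and 415 to 357 and 289.7 CPM. These 2 calls stood beside 9.86% of all genes called. An unadjusted p under 0.05 was reached by 12 of the 39. Library totals gave 5 higher and none lower, with the median of all genes at 0.13. Shares of all genes at that unadjusted p, with library totals or with a library left out are not given here. Such counts are therefore not read as a result about the 39 genes. Dnajc3 lost its call without batch in the model, and both lost theirs with only the 4 libraries fitted. Neither call was kept when the C2 library of batch 3017 or either L2 library was left out, and without the C2 library of batch 3097 there were 7 calls, with Pdia4, Pdia6, Dnajc10, Ddit3 and Mia2 gained.

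The other genes of segment 2 that came nearest were Pdia4 (0.49 ± 0.16, adjusted p = 0.077), Dnajc10 (0.54 ± 0.18, adjusted p = 0.084) and Eif2ak3 (-0.22 ± 0.07, adjusted p = 0.085), chosen after their values were seen. Hspa5 gave 0.05 ± 0.13 and Atf4 0.00 ± 0.08, both close to 0. Of the related lists, the lectin Erlec1 of ERAD rose (0.43 ± 0.11), as did Creb3l1 (0.93 ± 0.24), the folate enzyme Mthfd2 (0.91 ± 0.22), Iars (0.29 ± 0.07), Hspa1b (0.77 ± 0.14) and Hspa1a (0.71 ± 0.10). Cebpb (-2.82 ± 0.41), Cebpg (-0.55 ± 0.12), Dad1 (-0.38 ± 0.08), Sec23b (-0.35 ± 0.08) and Bag3 (-0.54 ± 0.14) fell. The calls of these related lists were not repeated without each C2 library. Creb3l1 was low, with means of 2.10 CPM in C2 and 4.03 in L2. In C2, Mthfd2 stood at 151 ± 75.7 CPM and Cebpb at 46.9 ± 26.3 CPM (SD, n = 2), so its libraries were far apart for both.

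In segment 3, edgeR's quasi-likelihood test called 0 of the 39 genes, beside 1.72% of all genes, and DESeq2 called 0 too. An unadjusted p under 0.05 was reached by 3 of them, and the share of all genes at that threshold is not given here. Chac1 had the largest log2 fold change, 0.76 ± 0.21 (adjusted p = 0.12), with 4.57 and 4.61 CPM in C3 and 8.75 and 6.80 in L3, so that its libraries did not overlap. Hspa5 gave -0.01 ± 0.13 and Asns -0.01 ± 0.15. Of the related lists, the cytosolic heat shock gene Hspa1a rose, by 0.57 ± 0.10.

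Whether ligation acted differently on a gene in different segments was tested directly, as a difference of log2 fold changes. It was called for 11 of the 39 genes between segments 1 and 2, 2 higher and 9 lower in segment 1. Of all genes, 18.5% were called there, 10.3% higher and 8.2% lower. Between segments 1 and 3 the difference was called for 17 of the 39, 4 higher and 13 lower. Of all genes, 30.7% were called there, 16.1% higher and 14.7% lower. Library totals made the split of the 39 genes 8 and 8, and the split of all genes with library totals is not given here. Between segments 2 and 3, edgeR and DESeq2 each called 0 of the 39, beside 0% of all genes. There 1 of the 39 had an unadjusted p under 0.05, and the share of all genes at that threshold is not given here. The effect on Asns was larger in segment 1 than in segment 2 by 1.38 ± 0.22 on the log2 scale (adjusted p = 0.0036) and than in segment 3 by 1.30 ± 0.22 (adjusted p = 0.0022).

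On Eif2ak3 the corresponding differences were -0.71 ± 0.10 (adjusted p = 0.0026) and -0.91 ± 0.10 (adjusted p = 4.2e-04). Syvn1 differed by -0.74 ± 0.11 and -0.78 ± 0.11 (adjusted p = 0.003 and 0.0011). Of the main chaperones, none was called. Hspa5 differed by -0.24 ± 0.18 and -0.18 ± 0.18, Hsp90b1 by 0.05 ± 0.18 and 0.25 ± 0.18, and Calr by 0.11 ± 0.19 and 0.47 ± 0.19. Between segments 1 and 3, Calr (adjusted p = 0.096) was called higher in DESeq2 and with library totals. Without the C2 library of batch 3017 the count between segments 1 and 2 was 14, without that of batch 3097 it was 9, and it fell to 3 without the C1 library of batch 3017 or the L2 library of batch 3017.

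Ratios within a library do not depend on its scaling. ERAD transcripts summed to 6.80% and 6.14% of the folding sum in C1 and to 3.48% to 5.52% in the other 10 libraries. The sensing genes summed to 4.44% and 4.07% of it in C1 and to 2.56% to 3.88% elsewhere. In both cases the nearest library was that of C2 in batch 3017. Asns stood at 4.04% and 5.90% of Atf4 in C1 and at 15.8% to 24.5% elsewhere, and Chac1 at 0.688% and 0.961% of Atf4 in C1 and 2.36% to 6.03% elsewhere. Dnajc10 stood at 138% and 153% of Dnajc3 in C1, at 202% and 376% in C2 and at 451% to 639% in the other 8 libraries.

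**Figure D5:**
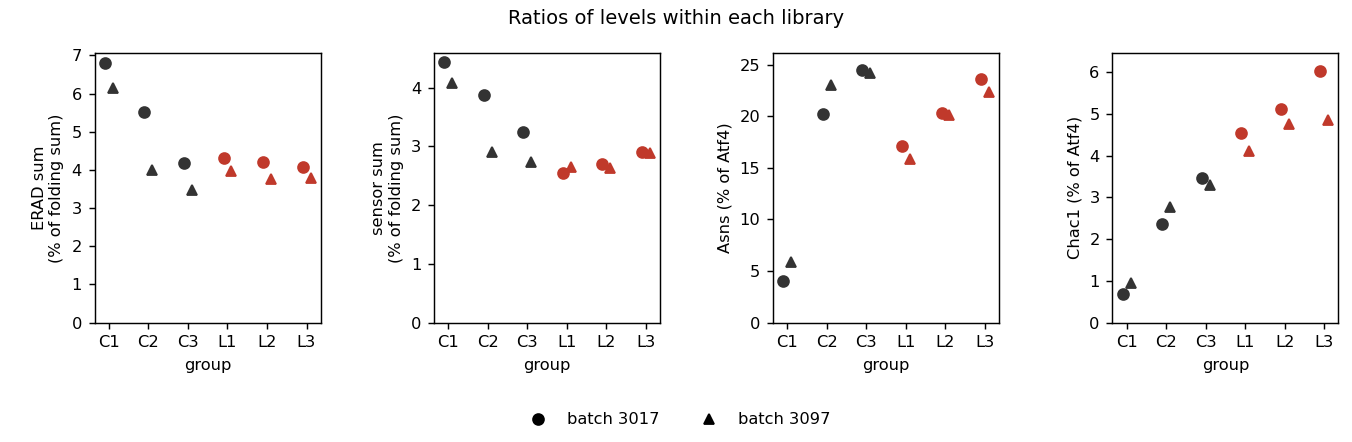
Ratio in percent of summed levels (ERAD and sensing genes over folding genes) and of single levels (Asns and Chac1 over Atf4) in each library by group, circles for batch 3017 and triangles for batch 3097, black for control and red for ligated, on linear axes from 0. C1 is highest in the former pair and lowest in the latter pair of plots.

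As a summary of the branches, the mean log2 level of the 18 folding genes minus that of the 6 ATF4 branch genes was 5.95 and 5.92 in C1, 5.43 and 5.34 in C2, and 5.36 and 5.59 in C3. It was 5.21 and 5.55 in L1, 5.05 and 5.20 in L2, and 5.18 and 5.43 in L3. The C1 libraries lay above the others, and L1 overlapped C2 and C3. The folding mean alone was 8.98 and 9.10 in C1, within the 8.84 to 9.25 of the other libraries. The ATF4 branch mean was 3.03 and 3.18 in C1 and 3.41 to 4.05 elsewhere. That branch mean averages genes that moved in opposite directions in L1, Asns, Chac1 and Ddit3 higher and Atf4 and Ppp1r15a lower. The genes were chosen with results of these data known, so the difference is given without a test.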

How the data were processed

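RNA was measured by polyA-selected, directional RNA-seq of 12 pools of 2 mice, from 500 ng of RNA per library, per the labels' protocols. The deposited values are raw counts per gene; per the submitters' processing notes the tools named were Trim Galore 0.6.0, cutadapt, FastQC and STAR 2.7.0e, with the build GRCm38. For the assignment of reads to genes, the program, strand option and annotation were not given in the sources used. In the tables, all 55536 identifiers matched GENCODE M21, which gave the symbols. The directional kit fixes no counting setting. Genes with exons overlapped on the opposite strand are uncertain to that extent, namely Ddit3, Hsp90b1, Manf, Eif2ak3, Syvn1, Pdia3, Pdia6, Dnajb9 and Ppp1r15a. Exons of Pdia4, Hsp90b1, Manf and Ddit3 overlap another annotated gene on the same strand, which a strand option does not separate.

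Counts were filtered with filterByExpr (minimum count 10), scaled by TMM and tested with edgeR 4.0.16 (limma 3.58.1, R 4.3.3) by the robust quasi-likelihood test, two-sided, with group and sequencing batch, all 12 libraries in 1 fit and Benjamini-Hochberg adjustment over 19213 genes; a call is an adjusted p under 0.05. There were 5 residual degrees of freedom, a median of 4.55 prior degrees of freedom and a common biological coefficient of variation of 0.153. Standard errors are the log2 fold change divided by the square root of F. A count of 3, the limit that 0 counts allow, is 0.07 to 0.103 CPM, for counting error only. DESeq2 1.42.0 was an alternative, as were library totals alone, no filter, no batch, only the libraries of a contrast, and each library left out. The procedure was tested on simulated data, where it recovered 168 of 200 genes changed 2-fold and made 5 false calls. Those counts had the same spread for every gene and no difference between batches, unlike these data. Tables and plots used Python 3.11.15, pandas 2.3.3 and matplotlib 3.10.9.

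Libraries are named by group and batch, since the replicate numbers in the labels are not tied to batches; batch is stated in the series' design and holds 1 library of every group. Deviations from group means of same-batch libraries correlated at 0.083 to 0.55, over 0.1 in 13 of 15 pairs of groups, and 1798 genes (9.36%) differed between batches, among them Ero1l, Syvn1 and Eif2ak3 of the 39. The rule for the 39 genes and the related lists uses gene names and no measured value, but they were drawn up with earlier results of these data known. Values in every library were printed for 14 preset genes and for the 8 genes with the largest change called in each ligation contrast with the same direction in both batches; of each other list, up to 3 called genes were named. Derl3 was added after its values were seen.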

Additional observations from a re-analysis of the deposited data

Results flagged for a closer look

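A direct test of whether ligation effects differed by segment picked out the following genes; values are the log2 effect in segment 1 minus that in the other segment, with edgeR's adjusted p under 0.05, and both sets of values share the libraries of segment 1. Against segment 2, the effect in segment 1 was higher for Asns (1.38) and Chac1 (1.00). It was lower for Dnajb11 (-0.37), Edem1 (-0.39), Sel1l (-0.43), Syvn1 (-0.74), Xbp1 (-0.55), Eif2ak3 (-0.71), Atf4 (-0.46), Ppp1r15a (-0.66) and Mia2 (-0.53).

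Against segment 3, the effect in segment 1 was higher for Dnajc10 (1.13), Ddit3 (0.96), Asns (1.30) and Chac1 (1.19). It was lower for P4hb (-0.46), Dnajb9 (-0.43), Dnajb11 (-0.32), Dnajc3 (-0.65), Herpud1 (-0.51), Edem1 (-0.50), Derl1 (-0.47) and Syvn1 (-0.78). The same held for Xbp1 (-0.67), Eif2ak3 (-0.91), Atf4 (-0.53), Ppp1r15a (-0.64) and Mia2 (-0.72). Under all 13 alternatives, 2 of the 11 calls against segment 2 were kept (Asns and Eif2ak3), and 9 of the 17 against segment 3 (Asns and Dnajc10 as higher, Atf4, Dnajc3, Eif2ak3, Mia2, Ppp1r15a, Syvn1 and Xbp1 as lower).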

How the results depend on the processing

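Without batch as the block that pairs libraries, calls numbered 20 in segment 1, 1 in segment 2 and 0 in segment 3, 0 for C3 against C2, and 6 and 11 for the differences of segment 1 from segments 2 and 3. With only the libraries of a contrast fitted, they numbered 0 in segment 2, 12 for C2 against C1, 0 for C3 against C2, and 7 for segment 1 against 2. DESeq2 called 4 genes in segment 2 and 3 for C3 against C2, library totals 5 in segment 2, and no filter 2 for C3 against C2. Leaving out 1 library gave 16 to 19 calls in segment 1, 0 to 7 in segment 2, 13 to 19 for C2 against C1, 16 to 21 for C3 against C1, 0 to 3 for C3 against C2, 3 to 14 for segment 1 against 2, 11 to 15 for 1 against 3 and 0 to 1 for 2 against 3. A lone library was then assumed to vary like the other groups. The branch difference moved to 5.96 (prior count 0.5) and 5.85 (prior count 8) in C1, and to 5.31 in C2 (prior count 8). The cause was not tested. Of alternatives for called named genes, 112 kept the call, 14 lost it and 0 changed sign; for uncalled ones the figures were 333 kept, 13 gained and 41 changed sign. Sign changes with library totals were Asns in segments 2 (0.041) and 3 (0.021), Dnajc10 (0.015) and Eif2ak3 (0.015) in segment 3, Herpud1 (0.076) and Xbp1 (0.11) in segment 2, and Hspa5 in segments 1 (0.015) and 3 (0.025). Others were Asns (0.00050) and Hspa5 (0.0035) in segment 3 with no filter, and Atf4 (-0.00058) and Dnajb9 (-0.00087) in segment 2 with DESeq2. Uncalled values that changed sign when 1 library was left out ranged as follows. In segment 1 they were Creld2 (-0.078 to 0.26). In segment 2 they were Asns (-0.17 to 0.022), Atf4 (-0.013 to 0.046), Creld2 (-0.10 to 0.13), Dnajb9 (-0.093 to 0.12), Herpud1 (-0.18 to 0.11), Hspa5 (-0.047 to 0.17), Sdf2l1 (-0.073 to 0.19), Xbp1 (-0.041 to 0.0104). In segment 3 they were Asns (-0.11 to 0.10), Creld2 (-0.043 to 0.25), Ddit3 (-0.016 to 0.22), Dnajb9 (-0.0072 to 0.18), Dnajc10 (-0.10 to 0.077), Eif2ak3 (-0.058 to 0.0399), Herpud1 (-0.071 to 0.14), Hsp90b1 (-0.18 to 0.069), Hspa5 (-0.12 to 0.12), Mia2 (-0.11 to 0.014), Trib3 (-0.065 to 0.19), Xbp1 (-0.0013 to 0.21).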
